A study of Mus musculus with 6 samples.

Results

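Transcripts of 155 olfactory, vomeronasal and taste receptor genes were counted in mouse testis. They are the genes of the deposited gene table whose symbol begins with Olfr (odorant receptors), Vmn1r or Vmn2r (vomeronasal receptors), Taar (trace amine-associated receptors), Tas1r or Tas2r (taste receptors) followed by a number, and whose counts summed over all 6 libraries reached 60. The table holds 34144 gene symbols, of which 1602 carry such a name. Of these 1602 receptor genes, 644 had 0 counts in every library, 803 had between 1 and 59 counts, and the 155 described here are 9.68% of the whole. The genes were thus chosen by their summed counts, which are described without a test, and with the calls of Olfr161 and Vmn1r181 already known.

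RNA came from decapsulated testes of 3 Nsun7-/- and 3 WT mice, all labelled C57Bl/6J and aged 3 months, with 1 mouse per library. The labels name no treatment and do not describe the knockout allele. Total RNA was depleted of ribosomal and globin RNA before sequencing, and each library held between 23480448 and 28558865 estimated counts. Nsun7 encodes an RNA-binding protein, and its own level in CPM (counts scaled to the library's total by TMM) was 18.0, 17.8 and 25.2 in the Nsun7-/- libraries, against 36.7, 35.7 and 37.2 in the WT libraries, so the targeted transcript was lower but still present.

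Odorant receptors are seven-pass membrane proteins of olfactory sensory neurons, where each neuron is known to express one receptor gene and signals through the G protein subunit Gnal, the cyclase Adcy3 and the channel Cnga2. Vomeronasal neurons use V1R or V2R receptors and the channel Trpc2 to detect pheromones. In taste cells Tas1r1 pairs with Tas1r3 to detect amino acids and Tas1r2 pairs with Tas1r3 to detect sugars, while Tas2r receptors detect bitter compounds. Some odorant and taste receptors have also been described in testis and sperm, among them Olfr16 (MOR23), Tas1r1, Tas1r3 and Tas2r105 of the mouse.

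A pair of receptors stood apart between the genotypes. Olfr161, an odorant receptor gene on chromosome 16, was higher in Nsun7-/- testes, and Vmn1r181, a V1R pheromone receptor gene on chromosome 7, was lower. The RefSeq start of Olfr161 (GRCm38.p6, chr16:3592148-3592447, plus strand, 250 bases before the start in lower case and 50 after it in capitals) falls on the start codon itself, which is why it is shown beside the transcript estimates below. The Vmn1r181 sequence is the stretch of 250 bases before its RefSeq start (chr7:23983711-23983960, plus strand).
Olfr161 start: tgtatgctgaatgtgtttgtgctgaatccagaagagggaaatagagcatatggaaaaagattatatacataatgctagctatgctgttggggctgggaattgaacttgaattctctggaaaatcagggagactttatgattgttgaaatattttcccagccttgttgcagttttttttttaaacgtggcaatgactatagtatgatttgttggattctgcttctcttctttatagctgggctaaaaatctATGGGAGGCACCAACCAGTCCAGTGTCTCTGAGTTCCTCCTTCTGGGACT
Vmn1r181 upstream: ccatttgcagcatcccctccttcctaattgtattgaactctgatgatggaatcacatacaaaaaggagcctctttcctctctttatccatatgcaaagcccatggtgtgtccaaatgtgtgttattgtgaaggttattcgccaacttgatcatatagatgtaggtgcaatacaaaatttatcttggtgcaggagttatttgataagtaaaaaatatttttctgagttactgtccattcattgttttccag

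Olfr161 had 93, 140 and 164 counts in the Nsun7-/- libraries, against 53, 35 and 62 counts in the WT libraries. Scaled for depth it was at 3.76, 5.25 and 5.31 CPM in the Nsun7-/- libraries, against 2.40, 1.36 and 2.39 CPM in the WT libraries. Every Nsun7-/- library lay above every WT library, with Nsun7-/- mouse 1 the lowest of its genotype and WT mouse 2 the lowest of all. The mean was 4.77 ± 0.877 CPM in Nsun7-/- testes and 2.05 ± 0.599 CPM in WT testes (SD, n = 3 each). The log2 fold change was 1.23 (SE 0.24), with an adjusted p of 0.0391 in edgeR's quasi-likelihood test, adjusted by Benjamini-Hochberg over all 21002 genes tested. That call was fragile: with 1 mouse left out the edgeR adjusted p was between 0.0851 and 0.175 in the 5 fits without WT mouse 1, WT mouse 2, WT mouse 3, Nsun7-/- mouse 2 or Nsun7-/- mouse 3, and 0.00402 without Nsun7-/- mouse 1. The log2 fold change stayed between 0.99 and 1.36 over those 6 fits.

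Vmn1r181 had 67, 48 and 102 counts in the Nsun7-/- libraries, against 217, 192 and 193 counts in the WT libraries. In CPM this was 2.71, 1.80 and 3.30 in the Nsun7-/- libraries, against 9.83, 7.44 and 7.44 in the WT libraries. The genotypes did not overlap, and the highest Nsun7-/- library was well under the lowest WT library. The mean was 2.60 ± 0.755 CPM in Nsun7-/- testes and 8.24 ± 1.38 CPM in WT testes (SD, n = 3 each), and the gene fell by 1.65 on the log2 scale (SE 0.22, edgeR adjusted p = 0.00184). It kept its edgeR call on leaving out any one mouse, with adjusted p values from 0.000313 to 0.0206. Both calls were known when these receptors were chosen for description, so they are given as descriptions. In whole testis, fewer cells of a type and less RNA per cell cannot be told apart.

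**Figure D1:**
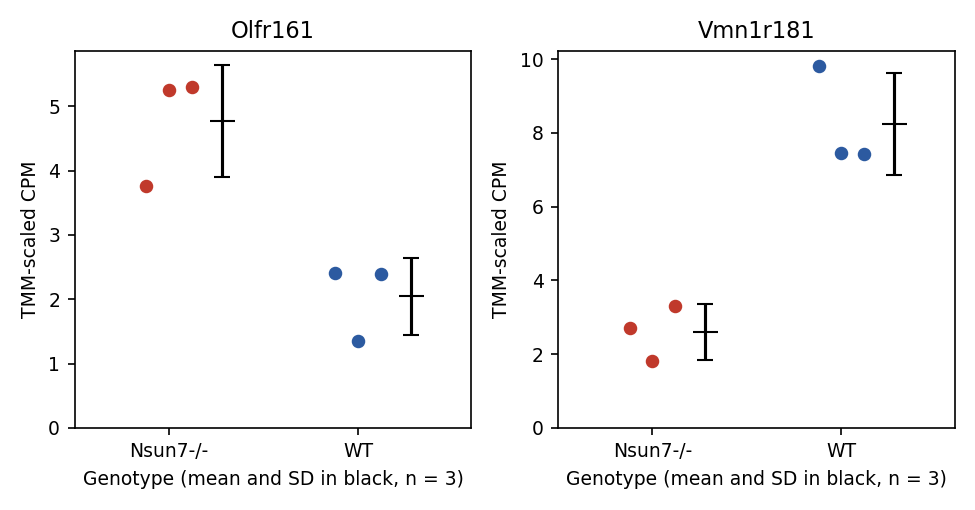
TMM-scaled CPM of Olfr161 (left) and Vmn1r181 (right) in each Nsun7-/- and WT library, with mean and SD in black (n = 3 each). The Nsun7-/- points of Olfr161 (3.76 to 5.31 CPM) lie above the WT points (1.36 to 2.40 CPM), and those of Vmn1r181 (1.80 to 3.30 CPM) lie below the WT points (7.44 to 9.83 CPM).

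Of the 155 genes, 150 passed the low-count filter and were tested; Olfr32, Olfr25, Vmn1r221, Vmn1r6 and Vmn1r236 were not. The pair made up the 2 calls among the 150, or 1.33%, beside 0.567% of all genes tested (0.233% higher and 0.333% lower in Nsun7-/-). Because the pair was known beforehand, nothing is read from that share. Unadjusted p values under 0.05 in edgeR were reached by 10 of the 150, or 6.67%, 8 higher and 2 lower, beside 8.39% of all genes (4.48% higher and 3.92% lower). Among the other 148 receptors edgeR called 0 (8 at an unadjusted p under 0.05), DESeq2 called 0 (4 at that level) and limma's voom called 0 (7 at that level); over all genes DESeq2 called 1.01% and voom 0.486%. Their log2 fold changes ran from -0.86 (Olfr774) to 1.02 (Vmn2r52), and the smallest adjusted p in edgeR was 0.375, for the V2R gene Vmn2r12.

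The counts of Olfr161 were split between a pair of annotated transcripts. A spliced transcript of 7133 bases, of which 939 (13.2%) are coding, held 73.6, 104 and 150 estimated counts in the Nsun7-/- libraries, against 41.1, 27.1 and 51.8 in the WT libraries. The other, of 942 bases, held 19.9, 35.5 and 14.5 estimated counts in the Nsun7-/- libraries, against 12.4, 7.99 and 10.3 in the WT libraries. Scaled for depth, the longer transcript was at 2.97, 3.91 and 4.84 CPM in the Nsun7-/- libraries, against 1.86, 1.05 and 1.99 CPM in the WT libraries, without overlap, while the shorter overlapped (0.803, 1.33 and 0.468 in Nsun7-/-, 0.559, 0.309 and 0.395 in WT). The longer transcript took 81.7% of the estimates, so most Olfr161 estimates lay on a transcript longer than the one that begins at the start codon printed above. The log2 fold changes were 1.25 (edgeR adjusted p over all transcripts 0.832) and 1.06 (0.932). Next to Olfr161 on the chromosome the one neighbour counted, Mefv, the pyrin gene, had between 0 and 3 counts per library.

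Vmn1r181 was lower in each of its 3 main transcripts once scaled for depth. A transcript of 4491 bases was listed at 0 in all 3 Nsun7-/- libraries, against 118, 47.5 and 61.3 estimated counts in the WT libraries. Against a floor of 3 counts over the Nsun7-/- group this is at least 85.2-fold lower, a bound for counting error alone, and edgeR's adjusted p over all transcripts was 0.208. A transcript of 4587 bases, which holds 1 more noncoding exon, had 55.4, 20.6 and 83.0 estimated counts in the Nsun7-/- libraries, against 71.9, 111 and 73.7 in the WT libraries. In CPM this was 2.24, 0.771 and 2.68 in Nsun7-/- and 3.25, 4.31 and 2.83 in WT, without overlap but with nearly touching libraries (log2 fold change -0.88, edgeR adjusted p = 0.932). The transcript of 1080 bases had 11.6, 25.4 and 18.96 estimated counts in the Nsun7-/- libraries, against 26.7, 32.98 and 58.0 in the WT libraries, which did not overlap in CPM either (-1.22, edgeR adjusted p = 0.932). The longer pair share nearly all of their bases, so the division of reads between them is an estimate, and how far it set the 0 was not tested. Over all receptors edgeR called 0 of 138 tested transcripts (4 at an unadjusted p under 0.05), beside 0.0272% of all 58773 transcripts tested.

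**Figure D2:**
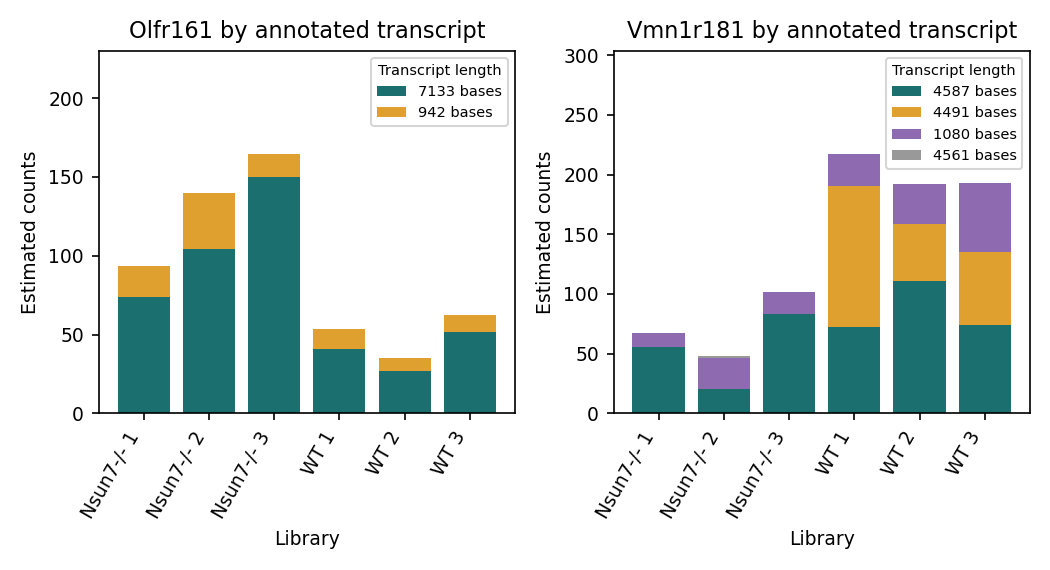
Estimated counts of each annotated transcript of Olfr161 (left) and Vmn1r181 (right), stacked by library and not scaled for depth, with Nsun7-/- libraries left of WT libraries. The Olfr161 transcript of 7133 bases is taller in the Nsun7-/- libraries (73.6 to 150 against 27.1 to 51.8 estimated counts), and the Vmn1r181 transcript of 4491 bases appears in the WT libraries only (0 against 47.5 to 118 estimated counts).

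The gene that shares the most sequence with Vmn1r181 lies next to it on chromosome 7. V1rd19, another V1R gene whose symbol falls outside the naming rule, holds 5.73% of the 31-base words of Vmn1r181, 31 being the word length by which kallisto assigns reads. Their coding sequences, of 912 bases for Vmn1r181 and 915 bases for V1rd19, share an identical run of 78 bases, the longest between them.
Vmn1r181 and V1rd19 shared run: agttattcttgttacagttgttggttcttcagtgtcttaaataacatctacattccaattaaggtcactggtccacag
V1rd19, looked at after its values were seen and too low to be tested, had 4, 2 and 1 counts in the Nsun7-/- libraries, against 8, 7 and 18 counts in the WT libraries. Its genotypes did not overlap and were ordered as those of Vmn1r181. How many reads of V1rd19 came from the shared run was not tested. On its other side V1rd19 borders Vmn1r183, also a V1R gene, which had 19, 25 and 31 counts in the Nsun7-/- libraries, against 12, 13 and 20 counts in the WT libraries, overlapping between genotypes. Vmn1r179 and Vmn1r180, on the far side of Vmn1r181, had at most 5 counts in any library.

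The receptors were low in testis. Levels between genes are compared in the deposited TPM (estimates divided by transcript length and scaled to one total per library), and the mean over the 6 libraries ran from 0.0195 to 9.53 TPM with a median of 0.377, beside 2.24 for all gene symbols with a count. None reached 10 TPM, 4 reached 5 TPM, 29 reached 1 TPM and 55 reached 0.5 TPM. The level of the highest receptor exceeded 67.7% of all gene symbols with a count, and that of the median receptor exceeded 29.1%. Gene symbols in this comparison needed only 1 count over the 6 libraries, while the receptors needed 60. A comparison with genes held to 60 counts was not made. The 10 highest receptors held 41.3% of the summed TPM of all 155. Each of the 155 had at least 1 count in every library, but the median was 24 counts per library and 84 genes averaged under 1 CPM, which limits the precision of single values. One RNA, Rmrp, took 17.5%, 12.9% and 11.4% of all TPM in the Nsun7-/- libraries, against 33.3%, 22.2% and 15.7% in the WT libraries, so genotypes are compared in CPM and not in TPM.

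**Figure D3:**
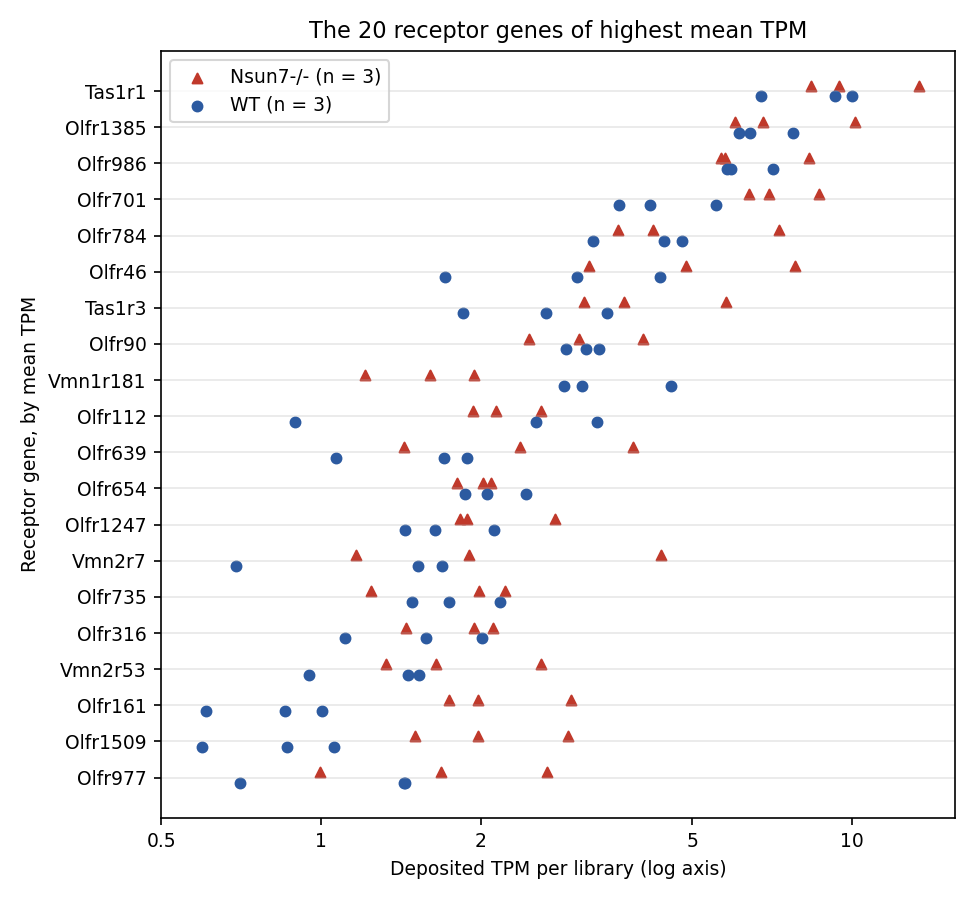
Deposited TPM (log axis) of the 20 receptor genes of highest mean level, 1 point per library, Nsun7-/- as triangles above WT as circles. Tas1r1 leads (6.74 to 13.4 TPM). For most genes the genotypes overlap, while Vmn1r181 lies lower and Olfr161 and Olfr701 lie higher in Nsun7-/-, though Olfr701 overlaps in CPM. TPM of all genes moves with the share taken by Rmrp.

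The highest was a taste receptor. Tas1r1, the amino acid taste subunit, was at 8.38, 9.44 and 13.4 TPM in the Nsun7-/- libraries, against 6.74, 9.28 and 10.01 TPM in the WT libraries. Its genotypes overlapped, at 20.9 ± 2.55 CPM in Nsun7-/- testes and 21.7 ± 0.890 CPM in WT testes (SD, n = 3 each; log2 fold change -0.05, SE 0.13, edgeR adjusted p = 0.915). All of its estimates lay on 1 transcript of 2863 bases that is 88.2% coding, and it shares no 31-base word with another gene. Tas1r3, the subunit common to the amino acid and sugar receptors, was at 3.12, 3.73 and 5.80 TPM in the Nsun7-/- libraries, against 1.85, 2.66 and 3.45 TPM in the WT libraries. In CPM it overlapped between genotypes (8.85, 9.71 and 12.8 in Nsun7-/-, 7.11, 8.06 and 9.25 in WT; log2 fold change 0.36, SE 0.17, edgeR adjusted p = 0.602; 0.18 without Nsun7-/- mouse 3). Tas1r3 overlaps Dvl1, a Wnt signalling gene, on the opposite strand, and the sources used here do not state that strand was kept. Counted on both strands, Tas1r3 shares 0.661% of its 31-base words with annotated transcripts of other genes. Whether reads of Dvl1 were counted as Tas1r3 was not tested. Tas1r2, the sugar-specific subunit, had 3 counts in all 6 libraries together.

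Bitter and trace amine receptors were almost absent from the counts. Of 35 Tas2r genes 24 had 0 counts and the highest, Tas2r137, had 29 counts over the 6 libraries; Tas2r105 had 0. Of 15 Taar genes 13 had 0 counts and the highest, Taar3, had 2. None of these 50 genes reached 60 counts. Olfr16, the odorant receptor described in mouse sperm, had 0 counts in all 3 Nsun7-/- libraries, against 0, 13 and 13 counts in the WT libraries, so it was below 60 and 1 WT library also lacked it.

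Of 1195 odorant receptor genes 99 (8.28%) reached 60 counts, with a median of 0.457 TPM. Olfr1385 led with 6.81, 6.02 and 10.1 TPM in the Nsun7-/- libraries, against 6.12, 7.76 and 6.43 TPM in the WT libraries. A transcript of 3155 bases without annotated coding sequence held 99.8% of its estimates. Of its 31-base words 42.9% also occur in transcripts of 2119 other genes, so its value is uncertain. Olfr986, the next by mean over all 6 libraries, was at 5.67, 5.77 and 8.32 TPM in the Nsun7-/- libraries, against 5.82, 5.93 and 7.09 TPM in the WT libraries. The genotypes overlapped for both, with log2 fold changes in CPM of -0.16 (edgeR adjusted p = 0.769) and -0.26 (0.641), and in TPM these 2 neighbours in the order do not differ beyond their spread. Within the Nsun7-/- libraries Olfr701 (mean 7.35 TPM) lay above Olfr986 (6.59 TPM), and within the WT libraries below it (4.45 against 6.28 TPM). Olfr701 was at 6.98, 6.39 and 8.67 TPM in the Nsun7-/- libraries, against 3.64, 5.55 and 4.16 TPM in the WT libraries. In CPM the genotypes of Olfr701 overlapped slightly (8.41, 6.75 and 8.15 in Nsun7-/-, 5.66, 6.79 and 4.70 in WT), with a log2 fold change of 0.44 (SE 0.18, edgeR adjusted p = 0.532). It shares 2.25% of its 31-base words with other genes, and is 1 of 21 receptors that share under 5%.

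Olfr46 had more counts than any other odorant receptor, 4005 over the 6 libraries, but was the fifth of them per length. It was at 20.5, 28.5 and 39.1 CPM in the Nsun7-/- libraries, against 14.2, 20.6 and 26.4 CPM in the WT libraries. Its values overlapped between genotypes and ranged widely within each (log2 fold change 0.52, SE 0.27, edgeR adjusted p = 0.641). The log2 fold change was 0.25 without Nsun7-/- mouse 3, 0.31 without WT mouse 1 and 0.06 without both. A transcript of 7750 bases that is 12% coding held 99.9% of its estimates, and 47.5% of its 31-base words also occur in transcripts of 1583 other genes. Olfr784 (-0.05, edgeR adjusted p = 0.942, with a sign that depended on the mouse left out) and Olfr90 (-0.33, 0.658) also ranked among the highest odorant receptors per length, and their genotypes overlapped. Other genes hold 48.7% of the 31-base words of Olfr784 and 25.4% of those of Olfr90. Slc38a6, with 19197 counts over the 6 libraries, holds 17.9% of the words of Olfr784, so the value of Olfr784 is uncertain. Of the remaining odorant receptors the smallest p values belonged to Olfr1388, Olfr872 and Olfr839, each without overlap in CPM. Olfr872 was at 1.09, 1.09 and 1.84 CPM in Nsun7-/- and 1.04, 0.582 and 0.655 CPM in WT (log2 fold change 0.84, SE 0.35, edgeR adjusted p = 0.553), while Olfr1388 was at 0.72 (0.548) and Olfr839 at 0.37 (0.561).

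Among the genes that reached 60 counts, vomeronasal receptors had lower median levels per length than odorant receptors. That limit on counts admits lower TPM where transcripts are longer. Vmn1r221, with 60 counts, averaged 0.102 TPM over the 6 libraries, while Olfr325, with 61 counts, averaged 0.49 TPM. How far the limit set the medians and shares of the families was not tested. Of 231 V1R genes 25 (10.8%) reached 60 counts, with a median of 0.132 TPM, and Vmn1r181 was the highest of them. Vmn1r4 and Vmn1r227, the next V1R genes, were at 1.35 ± 0.122 and 1.29 ± 0.651 CPM in Nsun7-/- testes, against 1.27 ± 0.230 and 1.28 ± 0.165 CPM in WT testes (SD, n = 3 each), without a difference beyond that spread. Vmn1r72 was at 1.496, 1.05 and 1.75 CPM in Nsun7-/- and 0.770, 1.05 and 1.00 CPM in WT, with the nearest libraries of the genotypes almost touching (log2 fold change 0.60, SE 0.30, edgeR adjusted p = 0.618).

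Of 123 V2R genes 29 (23.6%) reached 60 counts, with a median of 0.201 TPM. Vmn2r53 had the most counts of all receptors, 4366 over the 6 libraries, and 85.3% of its estimates lay on a transcript of 21388 bases that is 12.3% coding. It was at 29.3 ± 6.69 CPM in Nsun7-/- testes and 25.8 ± 2.53 CPM in WT testes (SD, n = 3 each; log2 fold change 0.19, edgeR adjusted p = 0.732), and without Nsun7-/- mouse 3 the direction turned (-0.02). Vmn2r7 was the highest V2R gene per length, at 1.16, 1.90 and 4.38 TPM in the Nsun7-/- libraries, against 0.693, 1.52 and 1.69 TPM in the WT libraries; Nsun7-/- mouse 3 stood far above the other 5 libraries. It shares 67.0% of its 31-base words with other genes and overlaps another annotated gene on its own strand, so its value is uncertain (log2 fold change in CPM 0.60, edgeR adjusted p = 0.631; 0.14 without Nsun7-/- mouse 3). Vmn2r12 was at 1.13, 1.27 and 1.46 CPM in the Nsun7-/- libraries, against 0.815, 0.543 and 0.655 CPM in the WT libraries. Its genotypes did not overlap, but at these few counts the log2 fold change of 0.95 (SE 0.31) did not pass (edgeR adjusted p = 0.375). Vmn2r115, the third V2R gene per length, was at -0.27 (0.659).

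**Figure D4:**
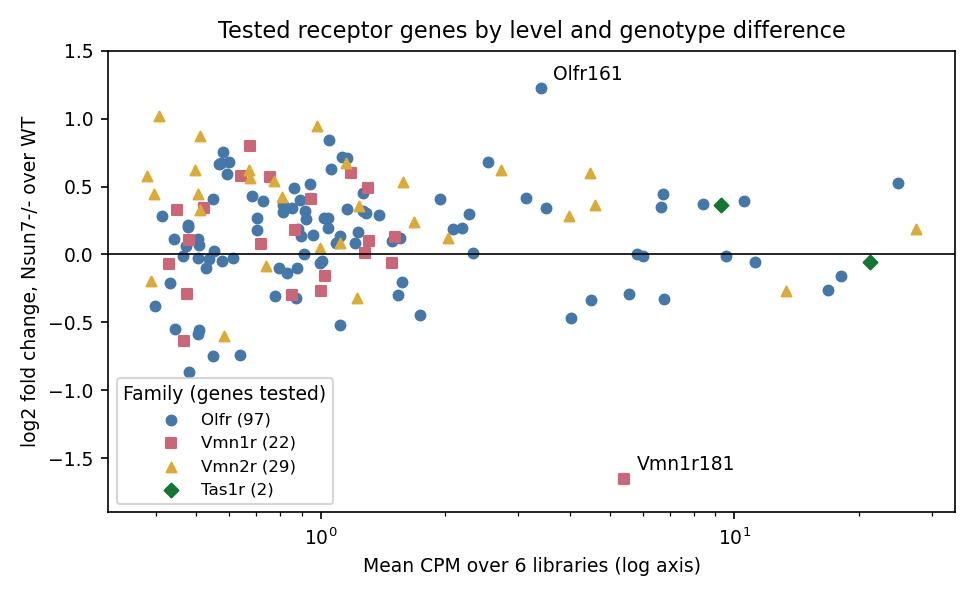
Log2 fold change (Nsun7-/- over WT) of the 150 tested receptor genes against mean CPM over the 6 libraries (log axis), by family. Olfr161 (1.23) and Vmn1r181 (-1.65) lie outside the other 148, which run from -0.86 to 1.02.

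More receptors pointed upward than downward, and Nsun7-/- mouse 3 was the highest library for many of them. The log2 fold change was above 0 for 102 of the 150 tested (68%), beside 52.5% of all genes, with a median of 0.19 (quartiles -0.06 and 0.41), beside 0.015 for all genes (-0.14 and 0.18). In CPM 14 receptors were higher in every Nsun7-/- library than in any WT library and 5 were lower in every one, together 12.7%, beside 14.3% of all genes (9.33% against 7.38% higher, 3.33% against 6.95% lower). For 12 of the 14, Nsun7-/- mouse 3 was the highest library. Over the 150 it was the highest for 74 (49.3%), beside 31.2% of all genes. Without Nsun7-/- mouse 3 the log2 fold change was above 0 for 85 of 151 tested (56.3%), beside 49% of all genes, and the median was 0.07, beside -0.005 for all genes.

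The families shared this pattern to different degrees. Values of V2R genes were above 0 for 24 of 29 (median 0.425; 0.19 without Nsun7-/- mouse 3), those of odorant receptors for 63 of 97 (0.14; 0.065 without it) and those of V1R genes for 14 of 22 (0.10; -0.20 without it, so the V1R direction turns). As the median log2 CPM of a family, centred on the 6 libraries, V2R genes were at -0.22, 0.12 and 0.51 in the Nsun7-/- libraries, against -0.375, -0.15 and 0.02 in the WT libraries. Odorant receptors were at -0.09, 0.02 and 0.295 in the Nsun7-/- libraries, against -0.06, 0.01 and -0.08 in the WT libraries. Nsun7-/- mouse 3 was the top library in both families, and the other Nsun7-/- libraries lay within or near the WT range.

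**Figure D5:**
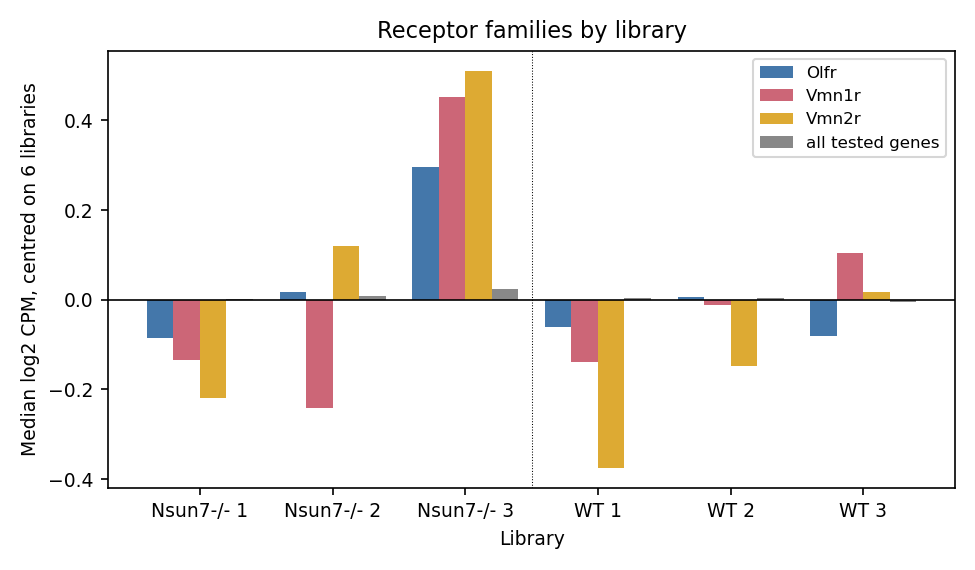
Median log2 CPM of the tested Olfr, Vmn1r and Vmn2r genes and of all tested genes in each library, each gene first centred on its mean over the 6 libraries, with Nsun7-/- libraries left of WT libraries. Nsun7-/- mouse 3 is the highest for all 3 families (0.295 to 0.51), while all tested genes stay near 0.

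Receptor RNA as a whole was also highest in that mouse. The 155 genes summed to 320, 355 and 457 CPM in the Nsun7-/- libraries, against 344, 355 and 350 CPM in the WT libraries. The receptor genes under 60 counts, which the choice of genes left out, summed to 46.5, 53.4 and 70.0 CPM in the Nsun7-/- libraries, against 46.8, 45.4 and 54.2 CPM in the WT libraries. In both sums Nsun7-/- mouse 3 was the top library and the other 5 lay close together. That library was also at one end of the first principal component of all genes (49.2, with WT mouse 1 at -38.3 at the other end). Of 13 lists of cell type markers it had the lowest summed level in 7, and its part in the receptor values was not tested. In summed CPM 11 lists overlapped between genotypes and 2 were lower in every Nsun7-/- library, those of peritubular myoid cells and of vomeronasal neurons. Peritubular myoid markers were at 728.8, 713.5 and 610.1 CPM in the Nsun7-/- libraries, against 773.6, 793.1 and 753.8 CPM in the WT libraries. Those of leptotene and zygotene spermatocytes were at 5448, 3307 and 2157 CPM in the Nsun7-/- libraries, against 12950, 7360 and 4510 CPM in the WT libraries, overlapping and lowest in Nsun7-/- mouse 3. Nearly all of that sum was Ccnb1ip1, at 5303, 3177 and 2026 CPM in the Nsun7-/- libraries, against 12780, 7198 and 4355 CPM in the WT libraries. The sum thus mostly follows that gene. Of the 9 genes in the list, 2 had a log2 fold change above 0. The median was -0.25, and edgeR called 0 of the 9. Summed markers of elongating spermatids were at 7558, 10360 and 7526 CPM in the Nsun7-/- libraries, against 8887, 8330 and 10900 CPM in the WT libraries; those of Leydig cells, with 2 of 9 genes called higher in edgeR and 0 lower, were at 5075, 3063 and 2294 CPM in the Nsun7-/- libraries, against 3010, 2450 and 1869 CPM in the WT libraries.

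Most receptor counts did not lie on short coding transcripts. Of the 148 genes matched to GENCODE M21, the transcript with the most estimates had a median length of 4880 bases and more than 1 exon in 129 genes. For odorant receptors that transcript had a median length of 3570 bases, where the median coding sequence is 936. Transcripts under 33% coding took 63.4% of the estimates, and those with 50% or more coding took 16.6%. Transcripts without an annotated coding sequence fall in neither share, and 18 of the leading transcripts were of that kind. For 63 genes the annotation holds a transcript that is at least 95% coding, and 43 of these genes had 0 estimated counts on it. For most of these genes the leading transcript was thus mainly noncoding by length, but for 27 it was at least 50% coding. Those of Tas1r1 (88.2%), Tas1r3 (73.1%) and Olfr701 (65.7%) were among the 27. The levels above are levels of annotated transcripts and not of coding sequence alone.

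Sequence shared with other genes limits how specific the counts are. The median receptor shared 14.8% of its 31-base words with other annotated genes, 21 shared under 5%, and 3 shared 50% or more, up to 90.9% for Olfr20. Over coding sequence alone the median was 27.1%, and 42 shared under 5%. Olfr161 and Vmn1r181 each shared 10.5% over all their transcripts, and 24.6% and 27.1% over coding sequence. Another annotated gene overlapped 34 of the 148, on the same strand in 18 and on the opposite strand in 17.

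The receptors lay on many chromosomes, with chromosome 7 holding 36 of its 400 receptor genes and chromosome 2 holding 23 of 297. Chromosome 17 had 20 of 98 (20.4%). In the order of receptor genes along the chromosomes 28 pairs stood next to each other, involving 50 genes. Chromosome 5 held 3 of 12, Olfr718-ps1, Vmn2r12 and Vmn2r9, and edgeR called none of them (smallest adjusted p = 0.375).

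The RefSeq start windows (300 bases, GRCm38.p6) of 135 receptors, 136 windows in all, resembled those of receptor genes under 60 counts in the features below. In 71.3% the start fell on an ATG, as for Olfr161 above, against 77.2% of 1179 windows of the receptor genes under 60 counts and 5.83% of all 32851 windows. The median GC content was 38.0%, against 35.7% and 52.7%, and the median number of CG dinucleotides was 1, against 1 and 7. Where the annotated start is the start codon, the window holds no annotated leader, and which starts the testis transcripts use was not tested. Searched on both strands, TATAAA occurred in 36.8%, against 39.8% and 13.6%, and the homeodomain core TAATTA in 14.7%, against 16.7% and 5.29%. The cyclic AMP response element TGACGTCA occurred in 0%, against 0.254% and 1.79%, its part TGACG in 8.09%, against 5.34% and 20.8%, and CCCNNGGG, like the site of Ebf factors, in 5.15%, against 3.9% and 13.7%. The Olfr161 window holds 1 TATAAA on the strand opposite to the gene, and the Vmn1r181 window holds none of the 5.

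Some defining genes of sensory neurons and taste cells were at or near 0, while other markers of the same lists were present. Trpc2 had 0 counts in every library, Gnat3, the taste G protein, had 1 count in 1 WT library, Stoml3 had 3 counts in 1 WT library, and Cnga2 had 1 or 2 counts per library. Omp, the olfactory marker protein, had 0, 8 and 7 counts in the Nsun7-/- libraries, against 1, 8 and 2 counts in the WT libraries. Among the markers that were present, Plcb2, a phospholipase of taste cells, was at 26.4, 31.9 and 43.4 CPM in the Nsun7-/- libraries, against 26.3, 25.2 and 33.4 CPM in the WT libraries. Pkd2l1, a channel of sour taste cells, was at 14.5, 11.9 and 14.7 CPM in the Nsun7-/- libraries, against 12.5, 11.7 and 16.7 CPM in the WT libraries. Gnao1, a G protein subunit of V2R neurons that is also common in brain, was at 130, 131 and 122 CPM in the Nsun7-/- libraries, against 136, 134 and 130 CPM in the WT libraries. None of these 3 genes was called in edgeR. Summed marker levels were 48.4, 44.4 and 52.4 CPM in the Nsun7-/- libraries, against 50.3, 49.6 and 47.0 CPM in the WT libraries, for the 10 olfactory neuron genes. For the 7 taste cell genes they were 58.4, 62.7 and 71.1 CPM in the Nsun7-/- libraries, against 58.3, 58.7 and 65.4 CPM in the WT libraries. Both sums were highest in Nsun7-/- mouse 3 and overlapped between genotypes. The 5 vomeronasal neuron genes, mostly Gnao1 by level, summed to 135.5, 137.8 and 128.2 CPM in the Nsun7-/- libraries, against 144.1, 140.9 and 138.7 CPM in the WT libraries, lower without overlap and lowest in Nsun7-/- mouse 3. The part of these cells in the receptor values was not tested.

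Signalling genes that also act outside sensory cells were present. Gnal was at 7.64, 6.23 and 7.83 CPM in the Nsun7-/- libraries, against 7.70, 6.55 and 6.67 CPM in the WT libraries. Adcy3 was at 21.02, 19.6 and 23.1 CPM in the Nsun7-/- libraries, against 20.3, 20.9 and 19.8 CPM in the WT libraries, and the genotypes overlapped for both genes. Of 66 genes listed for olfactory, vomeronasal and taste signalling, receptor trafficking, desensitization, receptor choice and other chemoreceptors, 50 were tested and edgeR called 0, with 6 (12%) at an unadjusted p under 0.05, beside 0.567% called and 8.39% at that level over all genes. Of the 50, 7 (14%) did not overlap between genotypes in CPM, 2 higher and 5 lower, beside 14.3% of all genes. DESeq2 called 0 (5 at that level) and voom called 0 (8 at that level). Grk3, a kinase that desensitizes receptors, had the smallest p, at 57.8 ± 8.14 CPM in Nsun7-/- testes and 42.2 ± 3.63 CPM in WT testes (SD, n = 3 each; log2 fold change 0.45, SE 0.13, edgeR adjusted p = 0.25). Ric8b, a chaperone of Gnal, was at 9.52 ± 2.12 CPM in Nsun7-/- testes and 6.60 ± 0.659 CPM in WT testes (0.53, SE 0.18, edgeR adjusted p = 0.407).

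The gene of smallest p in each other list did not pass in edgeR either. Gucy2d, a guanylyl cyclase of a small class of olfactory neurons, was at 1.05, 1.31 and 0.906 CPM in the Nsun7-/- libraries, against 1.45, 2.52 and 1.97 CPM in the WT libraries (log2 fold change -0.87, SE 0.28, adjusted p = 0.375). Emx2, a homeodomain factor, was at 1.01 ± 0.104 CPM in Nsun7-/- testes and 1.61 ± 0.179 CPM in WT testes (-0.66, adjusted p = 0.532). Neither of these overlapped between genotypes, both being lower in Nsun7-/-. Reep3 of the trafficking list was at 0.33 (adjusted p = 0.596), the taste channel Trpm5 at 0.36 (0.658) and the chloride channel Ano1 at -0.12 (0.780), all overlapping.

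The count of 60 that bounds the set cuts through a continuous range. Just inside it lay Vmn1r221 with 60, Olfr325 with 61 and Vmn2r118 with 62 counts over the 6 libraries. Just outside lay Olfr1445 with 59 and Olfr360 and Olfr750 with 58 each.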

How the data were processed

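RNA-seq of testis from 3 Nsun7-/- and 3 WT mice was processed with kallisto 0.50.1 and the mm39 build, both named in the submitters' processing notes. The sources used here do not give the annotation release, the strand setting or how transcripts were joined to symbols. The authors deposited estimated counts per transcript, and gene tables of estimated counts (whole numbers) and TPM for 34144 symbols; TPM sets every library to one total and so moves with the share of Rmrp. Labels name the samples as separate mice; 0 columns of other samples were present.

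Gene counts, and transcript estimates rounded to whole numbers, were tested for Nsun7-/- over WT in R 4.3.3 with edgeR 4.0.16 (TMM, filterByExpr with minimum count 10 and minimum total 15, robust quasi-likelihood test, Benjamini-Hochberg over all genes tested, threshold 0.05). CPM is scaled by TMM; SE is the log2 fold change over the square root of F. Depth ran from 23480448 to 28558865 counts; the biological coefficient of variation was 14.9%. On simulated data with 20695 genes the gene test recovered 38%, 84%, 94% and 100% of log2 changes of 0.585, 1, 2 and 3, with 3.66% false calls. These shares were not split by level, so they are not recovery rates for the receptors, whose median was 24 counts per library. Alternatives were DESeq2 1.42.0, limma 3.58.1 (voom, and log2 TPM with pseudocounts of 1 and 0.1), other scalings and filters, and leaving out mice. Floors cover counting error only. An exact permutation test of 3 against 3 cannot go below p = 0.1 and was not used.

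GENCODE M21 (GRCm38) gave names, gene order, transcript lengths and 31-base words, and RefSeq GRCm38.p6 the printed start windows; 148 of 155 receptors matched M21, and as the files use mm39 these are not the authors' coordinates. The receptors and gene lists were chosen with earlier results of these data known. Genes named are Olfr161, Vmn1r181, the 6 odorant receptors (3 in other families) of highest mean TPM, the 3 (1 in other families) of smallest unadjusted p, receptors described in sperm or testis, those at the count limit and the gene of smallest p in each signalling list; others named were chosen after their values were seen.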

Additional observations from a re-analysis of the deposited data

How the results depend on the processing

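Each call rests on 3 libraries per genotype, and 84 of the 155 receptors averaged under 1 CPM. RLE and upper quartile scaling, no low-count filter, a minimum mean CPM of 1, DESeq2 and sets of receptors with at least 30 or 120 counts each gave 2 called receptors. Voom gave 1, log2 TPM gave 0 with a pseudocount of 1, 0 with 0.1 and 0 without Rmrp, leaving out 1 mouse gave 1 to 2, and leaving out WT mouse 1 and Nsun7-/- mouse 3 together gave 1. Over all genes, 119 calls became 180 without the filter, 213 with DESeq2, 37 and 34 on log2 TPM with pseudocounts of 1 and 0.1, 33 without Rmrp, and 67 to 166 with 1 mouse left out. Olfr161 missed the threshold with voom (1.26, adjusted p = 0.0502) and on log2 TPM (0.77 to 1.32, limma adjusted p 0.148 to 0.265), and without both mice named above (1.27, edgeR adjusted p = 0.174); Vmn1r181 missed it on log2 TPM (-1.09 to -0.79, limma adjusted p 0.101 to 0.249). The median log2 TPM difference over all genes was 0.24, 0.30 and 0.10 in those 3 settings, beside 0.11, 0.32 and 0.07 for the receptors. The cause of these shifts was not tested. The labels do not state that mouse numbers pair the samples. Same-numbered mice had correlations of 0.177, -0.005 and 0.199, and differently numbered mice of the other genotype from -0.235 to 0.056. Whether mice of the same number shared a batch was not tested. With mouse number as a replicate block 331 genes passed, among them 3 receptors (Olfr46 joined, 0.52, edgeR adjusted p = 0.0248) and 1 signalling gene, Grk3 (0.45, adjusted p = 0.035). Transcript calls among receptors were 0 with the block, with no filter and with any 1 mouse left out, the last chosen after seeing the data. Without Rmrp 35 instead of 29 receptors reached 1 TPM, also chosen after seeing the data.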
